A study of Mus musculus with 9 samples.

Results

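The genes described here are 7 C-type lectin domain genes that liver endothelium is known for or that endothelial cells use: Clec4g, Cd209b, Clec1b, Clec1a, Clec2d, Clec14a and Cd93. They were chosen by name, and all 7 were found once each among the 52636 rows of the deposited count table. All 7 also passed the filter on low counts, which kept 14583 genes. Bulk RNA-seq had been run on endothelial cells sorted from the livers of mice as live, CD45-negative, CD31-positive cells that carried a VE-cadherin antibody injected before dissociation. The control group held 4 libraries of wild type genotype, and the other group held 5 libraries labelled as an Erg and Fli1 double knockout. Both are ETS family transcription factors of endothelium. Every sample shared the tamoxifen treatment and was taken at day 7 after it. The sources used here do not give the Cre driver, the strain or the age of the animals, or say whether each library came from a separate animal, so the p-values measure the spread between these libraries.

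C-type lectins share a protein fold that in many members binds sugars in the presence of calcium and in others binds proteins. Sinusoidal endothelial cells, which line the capillaries of the liver, carry several of them on the surface facing the blood, where they capture glycoproteins, viruses and other particles. Clec14a and Cd93 belong to another branch, the group XIV family. Both are found on endothelium of many organs and bind the matrix protein multimerin 2 during vessel growth.

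Levels are given as CPM, counts per 1000000 counts of the scaled library. The targeted genes were read first as a check of the labels. Erg was 312 ± 17.8 CPM (SD, n = 4) in the controls and 143 ± 10.9 (SD, n = 5) in the libraries labelled knockout, a log2 difference of -1.12 ± 0.08 (SE; edgeR adjusted p = 2.61e-05). Fli1 went against its label, at 100 ± 8.01 CPM in the controls and 147 ± 22.5 in the libraries labelled knockout (log2 difference 0.56 ± 0.12, edgeR adjusted p = 0.00636). A gene-level count does not show whether the part of Fli1 that was to be deleted was read, so the group is called the libraries labelled knockout throughout. Library totals ran from 26791371 to 36401682 counts. Of 8 general endothelial markers 3 fell (Tie1, Tek and Esam), where 14.8% of all tested genes fell. The other 5 did not pass, among them Cdh5 at 2190 ± 113 and 2158 ± 193 CPM. The summed level of the 8 was 11711 to 12922 CPM in the controls and 9229 to 11614 CPM in the libraries labelled knockout. In the same order of groups, the sinusoidal marker Stab2 was 5412 ± 138 and 4447 ± 1292 CPM and did not pass. It is 1 of 10 sinusoidal markers, of which 4 fell (Stab1, Fcgr2b, Gpr182 and Dnase1l3) and none rose. Stab1 fell from 6236 ± 302 to 2422 ± 210 CPM. Among the libraries labelled knockout, replicates 2 and 3 stood apart from replicates 1, 4 and 5 on the second principal component, which held 17.3% of the variance. By Xist and Ddx3y counts, 3 of 4 controls and 2 of 5 libraries labelled knockout came from male mice.

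The windows at the start sites of 5 of the 7 genes were in the RefSeq promoter table for the GRCm38.p6 build. Among them was that of Clec2d, which was also below every control in each library labelled knockout but is not printed. The stretches upstream of the start of Clec4g, Cd209b, Clec1b and Clec14a are printed because the first pair fell most, Clec1b alone rose, and Clec14a is an endothelial gene whose level was below every control in each library labelled knockout. They are Clec4g at chr8:3720696-3720901 (minus strand), Cd209b at chr8:3926845-3927091 (minus strand), Clec1b at chr6:129397047-129397296 (plus strand) and Clec14a at chr12:58269291-58269508 (minus strand), each 5′ to 3′ on the strand of the gene. Capitals mark GGAA, the core that ETS factors bind, or TTCC, the same core on the other strand.
Clec4g: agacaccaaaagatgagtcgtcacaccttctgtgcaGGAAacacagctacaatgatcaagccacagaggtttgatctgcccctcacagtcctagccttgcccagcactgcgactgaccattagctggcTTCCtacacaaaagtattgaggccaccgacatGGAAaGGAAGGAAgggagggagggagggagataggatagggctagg
Cd209b: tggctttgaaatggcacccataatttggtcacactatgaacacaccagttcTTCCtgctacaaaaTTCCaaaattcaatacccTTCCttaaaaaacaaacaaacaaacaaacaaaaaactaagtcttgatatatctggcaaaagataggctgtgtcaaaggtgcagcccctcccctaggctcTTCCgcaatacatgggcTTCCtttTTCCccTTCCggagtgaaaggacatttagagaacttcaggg
Clec1b: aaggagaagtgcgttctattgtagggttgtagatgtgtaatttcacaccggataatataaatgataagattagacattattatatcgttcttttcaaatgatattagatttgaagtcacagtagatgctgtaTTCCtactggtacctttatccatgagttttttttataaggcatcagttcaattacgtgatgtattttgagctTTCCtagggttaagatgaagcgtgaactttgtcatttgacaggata
Clec14a: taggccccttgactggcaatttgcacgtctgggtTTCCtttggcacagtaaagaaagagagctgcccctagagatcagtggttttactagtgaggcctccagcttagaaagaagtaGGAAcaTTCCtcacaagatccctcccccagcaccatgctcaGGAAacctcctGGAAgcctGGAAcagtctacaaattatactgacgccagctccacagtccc
GGAA on either strand is common. It was present in 96.0% of the 32851 windows of 300 bases in that table, with a median of 3 matches a window. The whole windows held 5 matches for Clec4g, 8 for Cd209b, 3 for Clec1b, 7 for Clec14a and 3 for Clec2d. The longer form AGGAAG, which contains GGAA, occurred on either strand in 35.4% of all windows. It was found 3 times in the Clec4g window and 3 times in the Cd209b window, and not in those of Clec1b, Clec14a and Clec2d. GGAAGT, which overlaps both, occurred in 23.8% of all windows and in none of the 5. These counts describe letters in a window, and binding was not measured in these libraries.

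Of the 7 genes, 5 had lower levels in the libraries labelled knockout (Clec4g, Cd209b, Clec2d, Clec14a and Cd93), 1 was higher (Clec1b) and 1, Clec1a, did not pass the test (edgeR quasi-likelihood, adjusted p under 0.05 over all 14583 genes). The background is large in this comparison: 29.3% of all tested genes passed, 14.8% lower and 14.5% higher. DESeq2 and limma-voom gave the same calls for all 7 genes, where 34.5% and 29.2% of all tested genes passed. With libraries labelled knockout 2 and 3 left out, Clec1a was called higher as well and the other 6 calls held, and 14.5% of all tested genes were higher and 14.9% lower. Those libraries held the lowest Clec1a levels of all, so its added call follows from the values left out. The 7 genes had a median log2 difference of -0.94, against 0.01 over all genes tested. They were listed with earlier results of these data known, so the 2 medians are given as a description. The groups did not overlap for the 5 lower genes, a pattern that 13.8% of all tested genes showed in the lower direction. In bulk RNA, fewer cells of a type and less RNA per cell cannot be told apart.

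**Figure D1:**
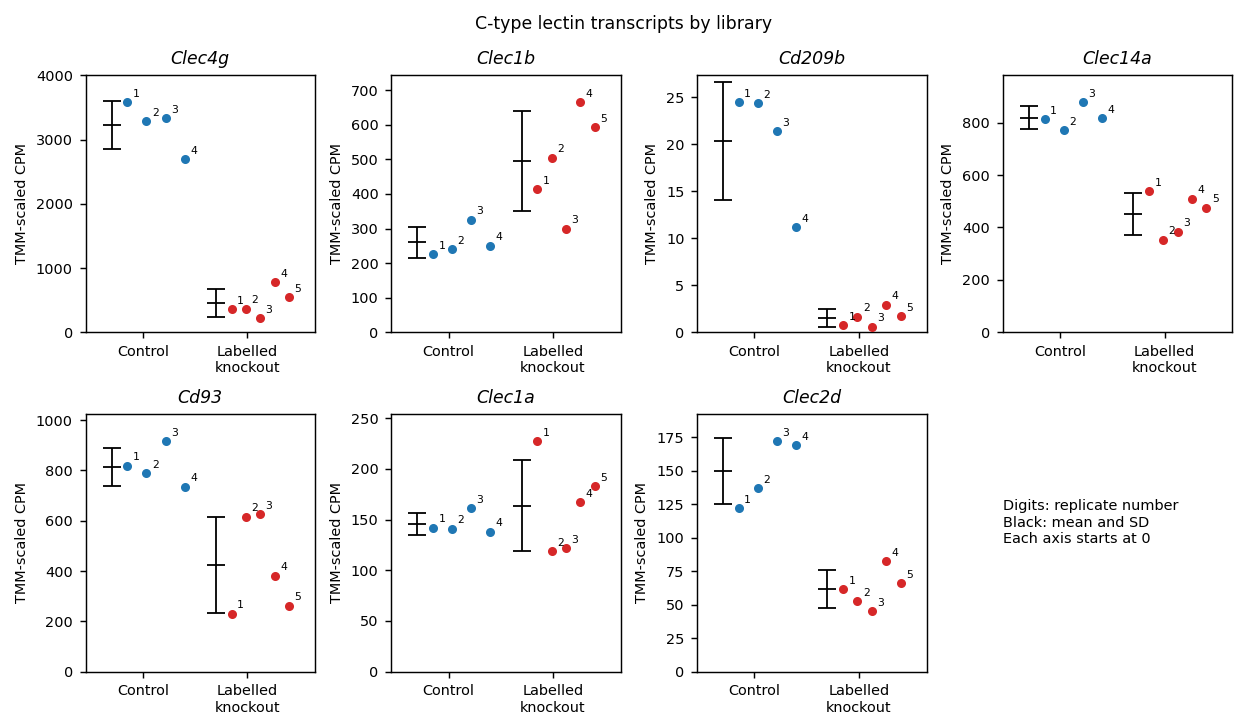
Level of each of the 7 genes in every library, in CPM on axes that start at 0, with a numbered point for each of 4 control libraries and 5 libraries labelled knockout and the group mean ± SD in black. Clec4g and Cd209b differ most as a ratio, from 3225 to 455 CPM and from 20.4 to 1.54 CPM, and the groups overlap for Clec1a and Clec1b.

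Of the 7 genes, Cd209b and Clec4g showed the deepest falls. Clec4g (ENSMUSG00000074491, GRCm38 chr8:3707064-3720651, minus strand) encodes LSECtin, a receptor that binds glycans on viruses and cells and is known for its high level on liver sinusoidal endothelium. Its level was 3582, 3290, 3332 and 2697 CPM in controls 1 to 4. It was 362, 368, 217, 781 and 549 CPM in libraries labelled knockout 1 to 5. Every library labelled knockout was below every control, with replicate 4 the highest of them and replicate 3 the lowest. The means were 3225 ± 375 CPM (SD, n = 4) and 455 ± 217 CPM (SD, n = 5), a log2 difference of -2.82 ± 0.33 (SE; 95% interval -3.56 to -2.09; edgeR adjusted p = 0.000292), or 7.08-fold lower. An annotated antisense RNA, Gm16553, shares 146 exon bases with Clec4g but held only 49 counts over all libraries.

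Cd209b (ENSMUSG00000065987, chr8:3917655-3926844, minus strand) encodes SIGN-R1, a mouse relative of DC-SIGN that captures mannose-rich and bacterial polysaccharides. Its level was 24.5, 24.4, 21.4 and 11.2 CPM in controls 1 to 4. It was 0.776, 1.67, 0.598, 2.95 and 1.74 CPM in libraries labelled knockout 1 to 5. Even the lowest control, replicate 4, was above the highest library labelled knockout. The log2 difference was -3.73 ± 0.45 (95% interval -4.73 to -2.73; edgeR adjusted p = 0.000372), or 13.3-fold lower, between means of 20.4 ± 6.29 and 1.54 ± 0.936 CPM. The libraries labelled knockout still held at least 22 counts of Cd209b each. Counting error alone (95% Poisson interval) put the first of them between 0.487 and 1.18 CPM.

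Clec4g and Cd209b lie on the same stretch of chromosome 8 with no other tested gene in the 197 kb between them. The 5 libraries labelled knockout came in the same order for both genes, from replicate 3, the lowest, through 1, 2 and 5 to replicate 4. The ratio of Clec4g to Cd209b counts was 135 to 241 in the controls and 219 to 456 in the libraries labelled knockout, so Cd209b fell further by 0.92 on the log2 scale (exact two-sided permutation test, n = 4 and 5, p = 0.0238, adjusted over 3 ratios 0.0476). Leaving out any one library gave differences of 0.78 to 1.1, with adjusted p-values of 0.0536 to 0.107 by the same test. With fewer libraries fewer permutations are possible, which raises the smallest p that can be reached. The lost calls therefore do not show whether the result depends on any single library. Of the neighbours on the other side of Clec4g, Trappc5, a subunit of a vesicle tethering complex, was 60.9 ± 8.05 and 65.5 ± 5.65 CPM and Fcer2a, a low-affinity IgE receptor that is itself a C-type lectin, was 0.471 ± 0.249 and 0.488 ± 0.159 CPM. Neither passed the test (edgeR adjusted p = 0.473 and 0.951). Gm7389 and Gm16589, beyond Cd209b, did not pass either (edgeR adjusted p = 0.426 and 0.0954).

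The receptor genes of the chromosome 6 natural killer gene complex moved in different directions. Clec1b (ENSMUSG00000030159, chr6:129397297-129409335, plus strand) encodes CLEC-2, the podoplanin receptor best known from platelets, which signals through Syk. Its level was 226, 240, 325 and 250 CPM in controls 1 to 4. It was 413, 505, 299, 665 and 592 CPM in libraries labelled knockout 1 to 5. In the libraries labelled knockout 4 of 5 values exceeded every control, and replicate 3 lay below control 3, so the groups overlapped. The means were 260 ± 44.5 and 495 ± 144 CPM, a log2 difference of 0.93 ± 0.22 (95% interval 0.43 to 1.43; edgeR adjusted p = 0.0124), or 1.90-fold higher.

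Because platelets carry Clec1b, the fixed list of 10 platelet and megakaryocyte genes was read beside it. Their summed level was 28 to 40.8 CPM in the controls and 71.1 to 144 CPM in the libraries labelled knockout. Of the 8 tested genes 6 rose, where 14.5% of all tested genes rose. Pf4, platelet factor 4, was 2.08 to 3.60 CPM in the controls and 21.4 to 29.6 CPM in the libraries labelled knockout. Itga2b, the platelet integrin subunit, was 26.4 ± 6.37 and 79.5 ± 30.4 CPM. The defining genes Gp6 and Treml1 reached no more than 0.494 and 1.14 CPM in any library. Gp6 rose from 0.0716 ± 0.0498 to 0.318 ± 0.172 CPM (edgeR adjusted p = 0.0446). Treml1 was not tested, at 0.0626 ± 0.0260 and 0.569 ± 0.452 CPM. Ppbp, Gp9 and Tubb1 also rose, and Gp1ba and Gp1bb did not pass. The part of platelet RNA in the Clec1b difference was not tested. Kupffer cells can also carry Clec1b, and of 13 Kupffer and macrophage genes none passed the test, with sums of 150 to 624 and 124 to 897 CPM. Their defining gene Clec4f was 5.58 to 87.6 CPM in the controls and 15.2 to 113 CPM in the libraries labelled knockout.

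Clec1a (ENSMUSG00000033082, chr6:129424772-129452000, minus strand) encodes CLEC-1, a receptor for fungal melanin found on endothelium. It was 142, 141, 161 and 138 CPM in controls 1 to 4. It was 227, 119, 122, 167 and 183 CPM in libraries labelled knockout 1 to 5. The controls lay close together, while the libraries labelled knockout fell on both sides of them, with replicates 2 and 3 below and replicates 1, 4 and 5 above every control. The log2 difference of 0.17 ± 0.18 (95% interval -0.24 to 0.58) did not pass the test (edgeR adjusted p = 0.523), which does not show that the levels are equal. Without replicates 2 and 3 it was 0.41 and passed (edgeR adjusted p = 0.0247), a call that follows from leaving out its lowest values. The ratio of Clec1b to Clec1a was 1.59 to 2.03 in the controls and 1.82 to 4.23 in the libraries labelled knockout, a log2 difference of 0.76 (exact two-sided permutation test, n = 4 and 5, p = 0.0317, adjusted over 3 ratios 0.0476). Leaving out any one library moved its adjusted p to between 0.0804 and 0.107, with differences of 0.64 to 0.94. Here too fewer libraries allow fewer permutations, so the lost calls do not show whether the result depends on any single library.

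The tested genes around Clec1b and Clec1a were also examined, since the pair lie close together. Clec9a, a receptor of dendritic cells for actin exposed on dead cells, sits between them and rose from 67.7 ± 18.5 to 140 ± 36.5 CPM (log2 difference 1.05 ± 0.24, edgeR adjusted p = 0.00994). Clec9a's first exon lies within the last annotated exon of Clec1b on the same strand, with 184 shared exon bases, and the sources used here do not give the rule by which such reads were counted. Clec9a is also 1 of 8 fixed dendritic cell markers, whose summed level was 347 to 519 CPM in the controls and 247 to 391 CPM in the libraries labelled knockout. Most of that sum was Zbtb46 and Clec9a, with Zbtb46 alone at 302 to 439 and 139 to 220 CPM in the same order of groups. Of the 4 tested, Clec9a rose, Zbtb46 fell from 350 ± 61.8 to 191 ± 35.4 CPM (edgeR adjusted p = 0.00328), and Itgax and Ccr7, below 1 CPM on average in both groups, did not pass. The other 4 were not tested, and of them Flt3, Xcr1 and Siglech reached at most 0.331, 0.219 and 0.663 CPM and Cd209a 0.200 CPM in any library. The part of dendritic cell RNA in the Clec9a difference was not tested. Gm43914, an annotated gene inside the Clec9a span, rose with it (8.06 ± 2.62 to 18.1 ± 5.0 CPM, edgeR adjusted p = 0.0101). Clec12b, an inhibitory receptor gene upstream of Clec1b, rose from 3.97 ± 1.67 to 7.65 ± 1.15 CPM (edgeR adjusted p = 0.0206), a call that ended without control 1, 2 or 3 (adjusted p = 0.0603, 0.0626 and 0.0540) and with libraries labelled knockout 2 and 3 both left out (0.0596). On the far side of Clec1a, Olr1, the receptor for oxidised LDL, rose from 1.25 ± 0.673 to 5.87 ± 2.61 CPM (log2 difference 2.23 ± 0.48, edgeR adjusted p = 0.00677). Clec7a, the fungal glucan receptor between Clec1a and Olr1, was 2.22 ± 1.56 and 3.15 ± 1.88 CPM and did not pass, nor did Clec12a at 2.58 ± 1.26 and 1.94 ± 1.28 CPM (edgeR adjusted p = 0.554 and 0.577).

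Clec2d (ENSMUSG00000030157, chr6:129180615-129186534, plus strand) encodes Clr-b, a surface ligand that engages an inhibitory receptor of natural killer cells. Its level was 122, 137, 172 and 169 CPM in controls 1 to 4. It was 61.7, 52.6, 45.2, 82.6 and 66.1 CPM in libraries labelled knockout 1 to 5. The groups did not overlap, and the log2 difference was -1.29 ± 0.17 (95% interval -1.68 to -0.90; edgeR adjusted p = 0.000666), or 2.44-fold lower, between means of 150 ± 24.5 and 61.6 ± 14.2 CPM. The nearest tested gene downstream, 2310001H17Rik, fell too, from 6.49 ± 0.713 to 1.98 ± 0.782 CPM (log2 difference -1.72 ± 0.27, edgeR adjusted p = 0.00154). The activation receptor gene Cd69, the next one, was 3.07 ± 0.792 and 2.03 ± 0.756 CPM and did not pass (edgeR adjusted p = 0.161), and neither did Clec2i or Gm5884 upstream (edgeR adjusted p = 0.571 and 0.243).

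**Figure D2:**
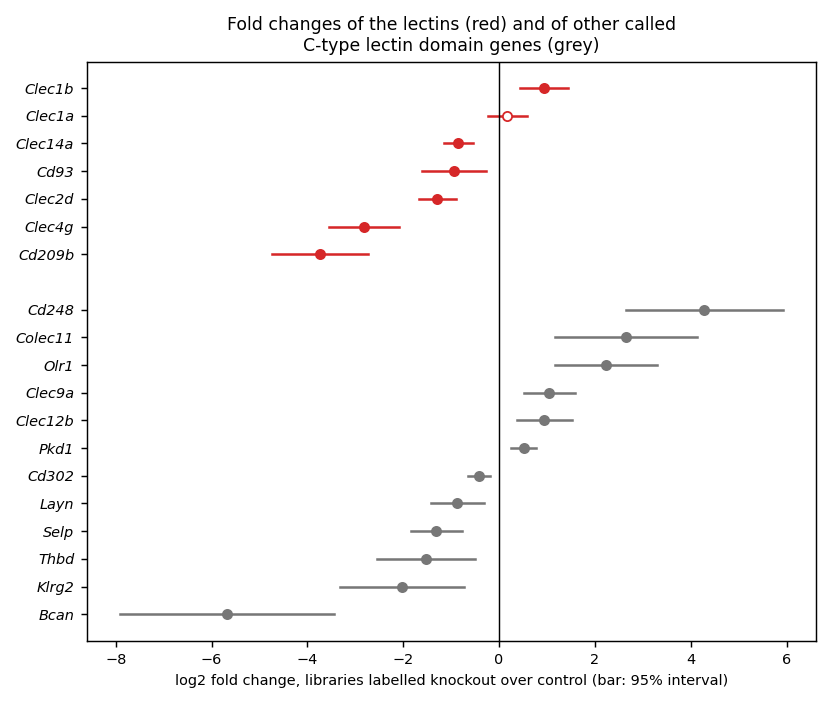
Log2 difference of the libraries labelled knockout over the controls for the 7 genes (red) and the other C-type lectin domain genes that passed the test (grey), with bars for the 95% interval of edgeR's quasi-likelihood fit and an open point for a gene that did not pass. Among the 7 genes Cd209b and Clec4g lie farthest below 0, at -3.73 and -2.82, while the grey Bcan lies lower still at -5.68, Clec1b lies above 0 and the interval of Clec1a spans 0.

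The endothelial group XIV genes fell by less than Clec4g and Cd209b. Clec14a (ENSMUSG00000045930, chr12:58264720-58269290, minus strand) encodes an endothelial adhesion receptor of growing vessels that binds multimerin 2. It was 813, 770, 878 and 816 CPM in controls 1 to 4. It was 539, 353, 384, 510 and 475 CPM in libraries labelled knockout 1 to 5. The controls varied little, with all libraries labelled knockout below them and replicates 2 and 3 the lowest. The log2 difference was -0.86 ± 0.14 (95% interval -1.16 to -0.55; edgeR adjusted p = 0.00154), or 1.81-fold lower, between means of 819 ± 44.4 and 452 ± 80.5 CPM. None of the tested neighbours of Clec14a (Mipol1, Sstr1, Sec23a and Gemin2) passed the test.

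Cd93 (ENSMUSG00000027435, chr2:148436640-148443563, minus strand) encodes the related receptor that organises matrix and cell contacts in endothelium and also binds multimerin 2. It was 818, 788, 915 and 735 CPM in controls 1 to 4. It was 231, 616, 627, 382 and 263 CPM in libraries labelled knockout 1 to 5. Replicates 2 and 3, the lowest for Clec14a, were the highest for Cd93, and all 5 were below every control. The log2 difference was -0.94 ± 0.30 (95% interval -1.61 to -0.27; edgeR adjusted p = 0.0396), or 1.92-fold lower, between means of 814 ± 75.8 and 424 ± 189 CPM. This call is the least stable of the 5. It ended on leaving out any 1 of the 4 controls, or library labelled knockout 1, 4 or 5, with adjusted p-values up to 0.0935, and also with library totals only, with no count filter and with a sex term. Without replicates 2 and 3 the log2 difference was -1.47 (edgeR adjusted p = 0.000369).

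The ratio of Clec14a to Cd93 was 0.959 to 1.11 in the controls and 0.573 to 2.33 in the libraries labelled knockout, so the pair that tracked each other among controls spread out. The mean log2 ratio did not differ between the groups beyond that spread (difference 0.18, exact two-sided permutation test, n = 4 and 5, p = 0.690, the smallest possible being 0.00794). Thbd, thrombomodulin, a group XIV anticoagulant receptor 28.5 kb from Cd93, fell from 456 ± 98.2 to 158 ± 113 CPM (log2 difference -1.53 ± 0.45, edgeR adjusted p = 0.0311). Its level was 76.4, 336, 67.4, 205 and 105 CPM in libraries labelled knockout 1 to 5, all below the lowest control at 363 CPM. That call ended without control 1, 2 or 3 (edgeR adjusted p = 0.0615, 0.0622 and 0.0831) and without library labelled knockout 1 or 5 (0.0574 and 0.0637). Gzf1, a zinc finger gene beyond Nxt1, rose from 29 ± 1.98 to 35.3 ± 1.59 CPM (edgeR adjusted p = 0.0149), and Nxt1 and Xrn2 did not pass. Cd248, the fourth group XIV gene, known from pericytes and fibroblasts, was 0.127 ± 0.102 CPM in the controls and 2.52 ± 1.25 CPM in the libraries labelled knockout (log2 difference 4.28 ± 0.74, edgeR adjusted p = 0.00232). It rested on 16 counts over the 4 controls and 394 over the 5 libraries labelled knockout.

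Clec4g, Cd209b and Clec1b shared 1 order of the libraries labelled knockout, within counting error for some pairs of libraries. The other genes differed in which of those libraries were high or low. Replicates 2 and 3 averaged 622 CPM of Cd93 against 292 for replicates 1, 4 and 5, but 368 against 508 for Clec14a, 121 against 192 for Clec1a and 48.9 against 70.1 for Clec2d. For these 4 genes the values of replicates 2 and 3 lay entirely to one side of the other 3. For Clec4g, Clec1b and Cd209b they did not. The share of all tested genes with such a split was not counted. Principal components of these same data had already set apart replicates 2 and 3. Clec4g, Clec1b, Cd209b, Clec14a and Clec2d passed the test with and without those libraries. Cd93 did so too, but those libraries held its highest levels among the libraries labelled knockout.

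To compare levels between genes, CPM was divided by the length of each gene's annotated exons in kilobases. On this scale Clec4g was first in the controls at 1310 ± 152 CPM per kb, at rank 10 of 14570 tested genes with a length, and held 71.8% of the sum over the 7 genes. Clec14a followed at 179 ± 9.71 CPM per kb, above Clec2d at 124 ± 20.2 and Cd93 at 122 ± 11.4, which did not differ beyond their spread. Clec1b was at 51.0 ± 8.72, Clec1a at 28.1 ± 1.99 and Cd209b at 9.63 ± 2.97 CPM per kb. In the libraries labelled knockout Clec4g remained first on average at 185 ± 88.1 CPM per kb but held 35.1% of the sum. Clec14a at 98.9 ± 17.6, Clec1b at 97.0 ± 28.3 and Cd93 at 63.5 ± 28.3 CPM per kb overlapped one another there. Clec2d was at 50.8 ± 11.7, Clec1a at 31.5 ± 8.66 and Cd209b at 0.730 ± 0.442 CPM per kb. In replicate 3 Cd93, not Clec4g, was the highest of the 7. The sum over the 7 genes was 1604 to 1940 CPM per kb in the controls and 386 to 718 in the libraries labelled knockout.

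The order depends on the length used for Clec1b, whose annotated exons span 5103 bases against 1090 for its CCDS transcript. With transcript lengths it stood second in the controls at 239 ± 40.8 CPM per kb and first in the libraries labelled knockout at 454 ± 132, above Clec4g at 367 ± 175. This length does not bear on the difference between the groups.

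**Figure D3:**
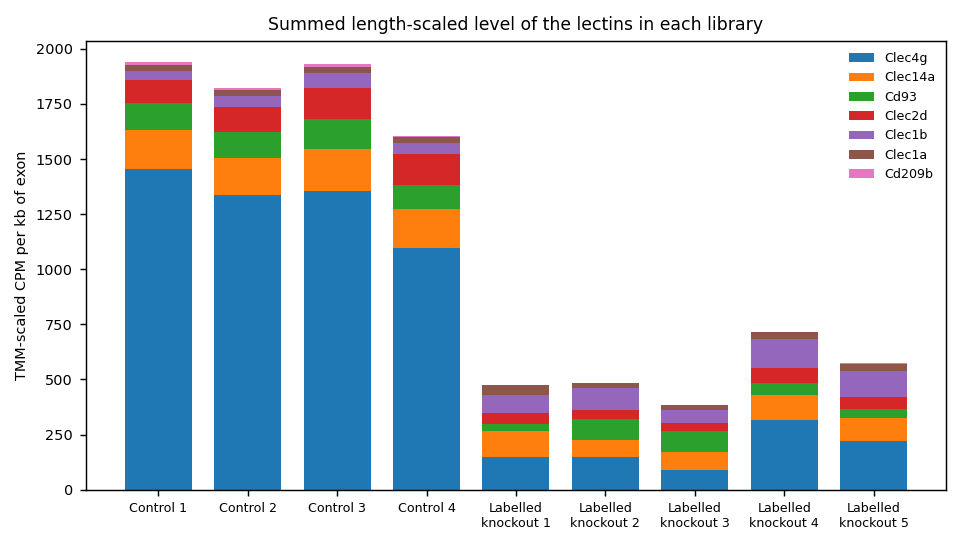
Level of the 7 genes in each library in CPM per kilobase of annotated exons, stacked on an axis from 0, with a bar for each of 9 libraries. The controls reach 1604 to 1940 CPM per kb, mostly Clec4g, and the libraries labelled knockout 386 to 718.

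Other genes with a C-type lectin domain did not move as a block. Of 89 listed, 87 were in the table and 37 passed the filter: 6 rose, 6 fell and 25 did not pass, with a median log2 difference of -0.21, so 12 of 37 is set against the 29.3% of all genes. The count of lower genes was 2 without control 2 and 3 without control 3, and 2 to 8 over all alternatives. The count of higher genes was 2 to 6 over them. Besides those already described, Colec11, a soluble collectin of complement, rose from 0.809 ± 0.113 to 5.07 ± 3.94 CPM (edgeR adjusted p = 0.0147; 0.0828 by limma-voom) and Pkd1, polycystin-1, from 167 ± 27.2 to 238 ± 17.9 CPM (edgeR adjusted p = 0.00932). Selp, P-selectin, which tethers leukocytes and platelets to endothelium, fell from 46.0 ± 6.37 to 18.5 ± 5.93 CPM (log2 difference -1.31 ± 0.24, edgeR adjusted p = 0.00307). Layn, a hyaluronan receptor, fell from 36.9 ± 1.91 to 20.2 ± 7.26 CPM (edgeR adjusted p = 0.0251), a call that ended without control 2, 3 or 4 (0.0622, 0.0604 and 0.0506). Cd302, an endocytic receptor, fell from 44.3 ± 3.96 to 33.3 ± 4.06 CPM (edgeR adjusted p = 0.0149; 0.0513 without control 2). Bcan, brevican, was 4.44 ± 1.84 CPM in the controls and at 0 counts in 4 of the 5 libraries labelled knockout, with 13 counts in replicate 2 (edgeR adjusted p = 0.00266). Klrg2 fell from a control level under 1 CPM (edgeR adjusted p = 0.0260), lost without control 2, 3 or 4. The mannose receptor Mrc1, an endocytic receptor of the sinusoid, was 3144 ± 162 and 2718 ± 421 CPM and did not pass the test (log2 difference -0.21 ± 0.14, edgeR adjusted p = 0.296).

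Mrc1 also stands among 10 sinusoidal endothelial markers, of which 4 fell and none rose, where 14.8% of all tested genes fell and 14.5% rose. Their summed level was 30496 to 32560 CPM in the controls and 13733 to 22942 CPM in the libraries labelled knockout. The falls were Stab1, a scavenger receptor, from 6236 ± 302 to 2422 ± 210 CPM, and Fcgr2b, Gpr182 and Dnase1l3. The markers that did not pass were Stab2, Lyve1, Mrc1, Oit3, F8 and Cd36. The part of this marker shift in the Clec4g and Cd209b differences was not tested.

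The known ligands and partners of the 7 proteins were read next, and 9 of 12 passed the filter, of which 1 fell and 1 rose, against 29.3% of all tested genes called in either direction. Mmrn2, multimerin 2, the shared matrix ligand of Clec14a and Cd93, was 1060, 1019, 1094 and 979 CPM in controls 1 to 4. It was 383, 387, 318, 363 and 299 CPM in libraries labelled knockout 1 to 5. It fell in all of them, with a spread far smaller than that of Cd93 (log2 difference -1.57 ± 0.11, edgeR adjusted p = 2.02e-05). Cblb, a ubiquitin ligase of the family of Cbl, a binding partner of Cd93, rose from 42.2 ± 10.6 to 188 ± 48.3 CPM (log2 difference 2.15 ± 0.22, edgeR adjusted p = 0.000163). Cbl itself was 63.2 ± 14.0 and 78.4 ± 10.3 CPM and did not pass (edgeR adjusted p = 0.150; 0.0342 without control 4).

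Igfbp7, a secreted ligand of Cd93, was 2383 ± 253 and 1889 ± 834 CPM and did not pass (edgeR adjusted p = 0.460). Its replicates 2 and 3 averaged 1006 CPM against 2479 in the other 3. Dag1, dystroglycan, was 278 ± 18.8 and 376 ± 95.5 CPM (edgeR adjusted p = 0.0945), and passed without library labelled knockout 2 (0.0379) or 3 (0.0345). Msn, moesin, was 1233 ± 52.5 and 1113 ± 91.6 CPM (edgeR adjusted p = 0.302). The LSECtin partners on T cells, Cd44 and Lag3, were 6.59 ± 3.10 and 7.35 ± 4.44 CPM, and 1.19 ± 0.215 and 1.5 ± 1.21 CPM, with edgeR adjusted p-values of 0.844 and 0.648. Podoplanin, Pdpn, the ligand of Clec1b, held 18 counts in the controls and 31 in the libraries labelled knockout and was not tested.

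Of 14 tested genes downstream of Clec1b, 2 rose and 2 fell, a share close to the 29.3% of all tested genes. Syk, its kinase, was 7.01 ± 2.03 and 7.50 ± 3.09 CPM (edgeR adjusted p = 0.839). The Src family kinase Fyn fell from 687 ± 14.1 to 298 ± 29.8 CPM (log2 difference -1.20 ± 0.09, edgeR adjusted p = 3.57e-05), and Src rose from 1.0 ± 0.114 to 5.20 ± 2.15 CPM (log2 difference 2.37 ± 0.32, edgeR adjusted p = 0.000668). The adaptor Lcp2 fell from 68.4 ± 11.8 to 45.5 ± 5.80 CPM (edgeR adjusted p = 0.00722), and the adaptor Grap2 rose from 0.247 ± 0.132 to 0.797 ± 0.247 CPM (edgeR adjusted p = 0.0174; 0.0518 without control 2). Of 8 tested genes of Clec14a and Cd93 signalling, 2 fell and 2 rose, where 14.8% of all tested genes fell and 14.5% rose. Itga5, the fibronectin receptor subunit, fell from 228 ± 27.9 to 126 ± 15.3 CPM (log2 difference -0.86 ± 0.11, edgeR adjusted p = 0.000546). The GTPase Rhoc fell from 287 ± 44.5 to 191 ± 34.9 CPM (edgeR adjusted p = 0.0201; 0.0596 without control 1 and 0.0577 without control 3). Gipc1, an adaptor, rose from 89.7 ± 8.27 to 108 ± 5.58 CPM (edgeR adjusted p = 0.0288), and Mmp2, a matrix protease at 0.117 ± 0.118 and 0.558 ± 0.289 CPM, was called higher (edgeR adjusted p = 0.0434). Leaving out single libraries ended the Gipc1 call in 6 of 9 cases, with adjusted p up to 0.0916, and the Mmp2 call in 4 of 5 cases, with adjusted p up to 0.119.

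The genes most like each of the 7 across the 9 libraries were taken by Pearson's r of log2 CPM among 8609 named protein-coding genes of at least 10 CPM. The libraries share the group difference, so r is given as a description. For Clec4g they were Ppfia2 (r = 0.989), Pgm5 (0.989) and Dpagt1 (0.988). Pgm5 also led for Cd209b (0.992), followed by Cep83 (0.988) and Clec4g itself (0.988). Pgm5 fell from 45.4 ± 9.52 to 4.35 ± 2.11 CPM (edgeR adjusted p = 0.000203). For Clec14a they were Robo4 (0.992), an endothelial guidance receptor, Cltc (0.991), the clathrin heavy chain, and Lmf2 (0.988). For Clec2d they were Arrdc1 (0.991), Dab2 (0.989), an endocytic adaptor, and Npdc1 (0.984). For Cd93 they were Arhgap25 (0.984), Mgll (0.968) and Plekhf1 (0.963), for Clec1b Ninj1 (0.974), Ppp1r37 (0.972) and Heg1 (0.971), and for Clec1a Abi3 (0.939), Gle1 (0.938) and Usp5 (0.928).

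**Figure D4:**
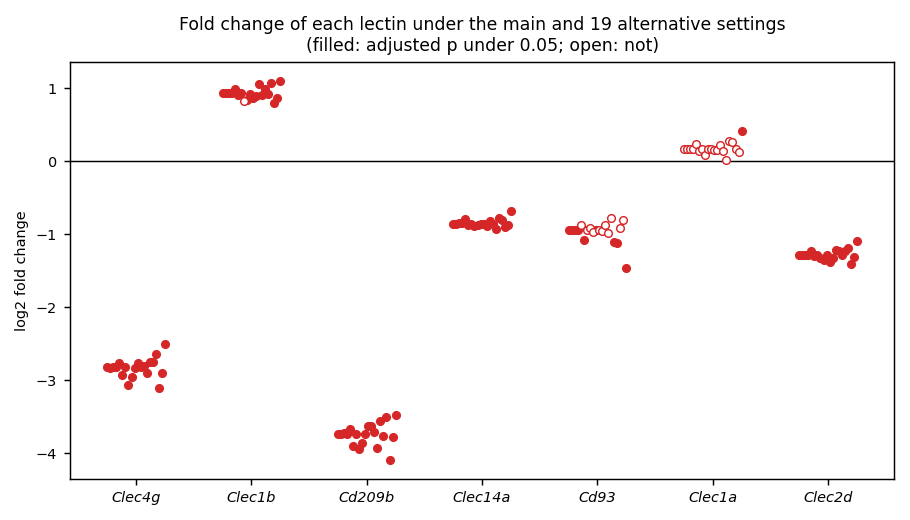
Log2 difference of each of the 7 genes under edgeR's main fit and the 19 alternative settings, each point a setting, with filled and open points for passing and not passing the test. Clec4g, Cd209b, Clec14a and Clec2d pass in every setting, while Cd93 does not pass in 11 of 19.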

How the data were processed

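RNA from 9 samples of sorted liver endothelial cells (4 control, 5 labelled knockout) was sequenced after selection of polyadenylated RNA, per the labels' protocols, which name both an unstranded and a stranded TruSeq kit without saying which was used. Reads were checked with FastQC 0.11.5 and aligned with STAR 2.7.6a to GRCm38, per the submitters' processing notes. The authors deposited raw counts per Ensembl gene. The sources used here name no counting tool or strand setting. Library totals were 26791371 to 36401682, so that 1 count was worth 0.0260 to 0.0368 CPM, and intervals on counts cover counting error only.

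Gene symbols and exon lengths came from GENCODE M21 (GRCm38), which named 52489 of the 52636 identifiers. Counts were tested with edgeR 4.0.16 (filterByExpr with a minimum count of 10 and a minimum total of 15, TMM scaling, robust quasi-likelihood fit), with Benjamini-Hochberg adjustment over all 14583 tested genes and a threshold of 0.05. CPM are counts per 1000000 of the TMM-scaled library size, and SE is the log2 difference divided by the root of the F statistic. Ratios of 3 gene pairs used a prior count of 0.5 and exact permutation. Alternatives were DESeq2 1.42.0, limma-voom (limma 3.58.1), RLE, upper quartile and library-total scaling, other filters, a block on replicate number, a sex term and leaving out libraries. The fit was also run on simulated counts with the same dispersion for every gene and few changed genes. That setting differs from these libraries, so the run does not vouch for the calls given here.

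The genes and lists were chosen with earlier results of these data known. Other C-type lectin genes are named when called with a mean of at least 1 CPM, partners up to 8 by level or when called, neighbours up to 2 on each side, and the 3 most correlated genes for each of the 7. The signalling genes named, Klrg2 and Itga2b were chosen after their values were seen.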

Additional observations from a re-analysis of the deposited data

Results flagged for a closer look

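In the controls, Clec1a was 161 CPM in replicate 3, set apart from the other 3 controls, which lay between 138 and 142 CPM. The gap from 142 to 161 CPM was 0.832 of the whole range of the group. It was 1 of 14 groups of values checked over the 7 genes, and chance sets apart about 1 in 20.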

How the results depend on the processing

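Across 19 alternatives Clec4g, Cd209b, Clec14a and Clec2d stayed lower and past the threshold, with log2 differences of -3.11 to -2.51, -4.09 to -3.48, -0.93 to -0.68 and -1.41 to -1.09. The block on replicate number, on 8 libraries with fewer residual degrees of freedom, gave 2658 genes called (1288 higher, 1370 lower) against 4271 (2110 and 2161). With it 0 of the 7 genes rose, Clec1b having an adjusted p of 0.0834 (0.000255 to 0.0834 over its alternatives), and Cd93 did not pass (0.0663). Same-numbered libraries did not deviate together (r from -0.317 to 0.276) and not every library correlated best with its own number, so the numbers give no pairing. With libraries labelled knockout 2 and 3 left out, 2 of the 7 rose, Clec1b and Clec1a, the latter with its lowest values left out. Leaving out single libraries gave 3086 to 3999 genes called. The log2 ratio difference of Clec4g over Cd209b was 0.78 to 1.10 and that of Clec1b over Clec1a 0.64 to 0.94 on leaving out single libraries. None of these passed, but fewer libraries allow fewer permutations and so a higher smallest p. Without replicates 2 and 3 they were 1.02 and 0.69, where 4 against 3 libraries allow fewer permutations still. The log2 ratio difference of Clec14a over Cd93 turned to -0.07 without replicate 1 of the libraries labelled knockout (up to 0.43 on leaving out other single libraries, and 0.82 without replicates 2 and 3). Among genes that did not pass, the sign turned for Igfbp7 (0.07), Cd44 (-0.08), Lag3 (-0.54), Syk (-0.09) and Clec4f (-0.15) without replicates 2 and 3, for Cd44 (-0.21), Lag3 (-0.27), Syk (-0.17) and Clec4f (-0.38) without replicate 2, for Cd44 (-0.13) and Clec4f (-0.16) without control 3, and for Syk (-0.03) without control 2. On leaving out single libraries these ran from -0.21 to 0.37 for Cd44, -0.27 to 0.55 for Lag3, -0.17 to 0.29 for Syk and -0.38 to 0.87 for Clec4f. The cause was not tested. Some of these settings for genes other than the 7, and the CCDS lengths, were chosen after seeing the data. Depth limits Cd209b, Cd248 and Bcan, which rest on few counts in one group.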
